A study of Homo sapiens with 12 samples.

Results

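Nucleolar and ribosome biogenesis genes were followed in RNA-seq of TYK-nu cells, which the study describes as an ovarian cancer line. The list held 51 genes, named for their roles, and was drawn up with earlier results of these data known. Of these, 50 were matched by symbol to the 17508 genes of the count table, and EBNA1BP2 was not analysed here. The cells were grown with 15 µM cisplatin, a platinum drug that binds DNA and RNA, or with the solvent DMSO. Poly(A)+ RNA was taken after 24 h or 72 h, which gave 4 groups of 3 libraries: DMSO at 24 h, cisplatin at 24 h, DMSO at 72 h and cisplatin at 72 h. All groups came from the same unmodified line. The labels number the libraries of a group as replicates, and the study's methods describe cells grown in triplicate without further detail, so p-values measure only the spread between these libraries, part of which may be technical. The question was whether the transcripts of the nucleolar machinery, or their exon/intron ratio, differed with the drug or with time, since the study followed cisplatin into nucleoli.

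The nucleolus is the nuclear body in which RNA polymerase I transcribes ribosomal DNA. The long precursor is cleaved, methylated at ribose by box C/D small nucleolar ribonucleoproteins (snoRNPs), converted to pseudouridine at chosen sites by H/ACA snoRNPs, and folded into the small and large ribosomal subunits by assembly factors. Most snoRNAs of human cells are cut out of the introns of other genes, several of which encode nucleolar proteins. The members were grouped into 6 roles, with 7 genes of RNA polymerase I transcription, 6 nucleolar phosphoproteins and chaperones, 3 proteins of box C/D snoRNPs, 4 of H/ACA snoRNPs, 14 factors of the small subunit and 16 of the large subunit.

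Each library was summarized by exon and intron fragments per gene. Totals ranged from 18526830 to 68753262 counts, and intron counts made up between 6.26% and 7.17% of a library. The 50 members together held between 207867 and 567364 exon counts but only between 7601 and 20893 intron counts, so their intron values are less precise. Values per library are given as CPM, counts scaled to a common library size, for exons and introns separately. The epithelial and serous markers were uneven. KRT18 had between 3049 and 9642 exon counts and KRT8 between 207 and 2210, but EPCAM had between 2 and 83, KRT19 between 22 and 160, WT1 between 41 and 170, KRT7 at most 8 and PAX8, a marker of serous carcinoma, at most 2. Mean levels at 24 and 72 h were 174 and 139.5 CPM for KRT18 and 12.6 and 32.2 for KRT8. Of 5 markers of other cell types, PTPRC had 0 exon counts in every library, ALB at most 3, CD3E at most 45 and VWF at most 53. PECAM1, which marks endothelial cells, had between 34067 and 90727. The summed level of these 5 markers lay between 2388 and 2492 exon CPM in the DMSO libraries at 24 h and between 2413 and 2475 with cisplatin. The bounds were 1351 and 1439 at 72 h for DMSO and 1417 and 1525 for cisplatin. Without PECAM1 the sum was between 0.485 and 0.872 in DMSO and between 1.36 and 1.44 in cisplatin at 24 h, and between 0.683 and 1.53 and between 1.58 and 1.70 at 72 h. The part of these markers in the results below was not tested.

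The promoters of 43 members were matched by symbol in RefSeq (GRCh38.p14), as windows of 300 bases around the start of the gene. They were searched for CACGTG, the E-box read by MYC and related factors, which reads the same on both strands. It was found in a promoter of 18 of the 43 members (41.9%), compared with 12.9% of 8504 genes tested for exon counts, counted by gene in the same way. Of all 35116 promoters, counted singly and not by gene, 7.26% held it. A match describes the letters of the window and does not show that a factor binds there. The promoters of 4 members are shown, with the E-box in capitals, because their genes differed in the course of exon counts described below. They are those of NCL, without the motif (chr2:231464435-231464734, minus strand), UTP20 (chr12:101279855-101280154, plus strand), FBL (chr19:39846330-39846629, minus strand) and NOP10, with 2 copies (chr15:34343087-34343386, minus strand).
NCL: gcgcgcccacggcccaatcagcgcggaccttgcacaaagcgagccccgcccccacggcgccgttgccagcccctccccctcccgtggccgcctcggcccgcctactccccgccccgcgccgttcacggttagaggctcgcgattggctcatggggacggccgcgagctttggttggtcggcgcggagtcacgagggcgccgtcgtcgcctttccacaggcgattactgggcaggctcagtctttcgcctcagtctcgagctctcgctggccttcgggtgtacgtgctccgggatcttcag
UTP20: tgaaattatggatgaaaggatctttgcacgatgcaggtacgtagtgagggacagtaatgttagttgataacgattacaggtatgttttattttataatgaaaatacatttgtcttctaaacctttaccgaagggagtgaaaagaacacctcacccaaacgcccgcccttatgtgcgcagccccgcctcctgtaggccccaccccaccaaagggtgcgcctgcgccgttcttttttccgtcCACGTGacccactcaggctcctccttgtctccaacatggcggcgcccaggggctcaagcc
FBL: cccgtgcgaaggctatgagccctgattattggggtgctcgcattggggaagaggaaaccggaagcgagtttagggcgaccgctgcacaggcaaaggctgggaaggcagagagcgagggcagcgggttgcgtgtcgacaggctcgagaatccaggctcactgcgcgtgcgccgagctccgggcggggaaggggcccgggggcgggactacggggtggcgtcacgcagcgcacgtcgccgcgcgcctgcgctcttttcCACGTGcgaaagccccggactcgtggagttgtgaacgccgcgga
NOP10: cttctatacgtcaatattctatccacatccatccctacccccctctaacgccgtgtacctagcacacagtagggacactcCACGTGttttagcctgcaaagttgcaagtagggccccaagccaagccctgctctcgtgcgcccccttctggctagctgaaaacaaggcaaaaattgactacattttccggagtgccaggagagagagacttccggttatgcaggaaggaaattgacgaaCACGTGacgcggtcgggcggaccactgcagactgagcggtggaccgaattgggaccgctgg

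Members with and without the motif were among those that fell over time, and no test of the difference was run. Between 24 and 72 h in DMSO, exon counts fell for 11 of 18 members with the motif and for 19 of 24 tested members without it, where 32.5% of all genes tested fell, with median log2 changes of -0.27 and -0.31. In cisplatin, 13 of 18 and 19 of 24 fell, against 31.5% of all genes, with medians of -0.31 and -0.37.

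In the annotation, 7 member genes carried snoRNA genes inside them on the same strand, 31 in all. TAF1D held 8, GNL3 held 6, NOP56 held 5, NOP58 held 4, NCL and WDR43 held 3 each and DKC1 held 2. These numbers count annotated genes, and in GNL3 those at chr3:52688882-52688961 and chr3:52688890-52688962 overlap on the same strand. Only 11 of these snoRNA genes were clear of every annotated exon of the host. Of these, 3 box C/D snoRNAs are shown because their hosts gave different results over time for exon and intron counts. In TAF1D the exon counts rose and the intron counts fell, in NOP58 both fell and the ratio passed in DMSO, and in NCL both fell and the ratio did not pass. The C box (TGATGA) and the D box near the 3′ end (CTGA), around which the proteins encoded by FBL, NOP56 and NOP58 assemble, are in capitals. SNORD11 lies in NOP58 (GRCh38, chr2:202293051-202293134, plus strand), SNORD82 in NCL (chr2:231460371-231460440, minus strand) and SNORD6 in TAF1D (chr11:93731502-93731574, minus strand).
SNORD11: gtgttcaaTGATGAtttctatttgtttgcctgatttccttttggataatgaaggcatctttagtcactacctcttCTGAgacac
SNORD82: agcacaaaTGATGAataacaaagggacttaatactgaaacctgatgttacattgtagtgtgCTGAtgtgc
SNORD6: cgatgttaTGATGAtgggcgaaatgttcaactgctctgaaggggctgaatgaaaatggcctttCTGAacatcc

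Levels differed widely between the members. Per kb of exon, NCL, which encodes the abundant RNA-binding protein nucleolin, had the highest mean over all libraries, with 241 ± 67.8 exon CPM per kb (SD, n = 12). FBL, the ribose methyltransferase of box C/D snoRNPs, followed with 173 ± 3.98. NOP10, the smallest H/ACA protein, had 145 ± 16 per kb, and NPM1, a chaperone of histones and ribosomal proteins, had 135 ± 11.6. This order pools both times and did not hold in each group. In DMSO at 24 h, NCL had 306 ± 11.9, FBL 172 ± 4.28, NPM1 145 ± 6.66 and NOP10 132 ± 5.83 (SD, n = 3). In DMSO at 72 h, FBL had 177 ± 3.10 and NCL 176 ± 4.21, which did not differ beyond their spread, followed by NOP10 with 163 ± 13.5 and NPM1 with 130 ± 9.34. At the other end, TAF1C, a subunit of the promoter selectivity factor SL1 of RNA polymerase I, had 1.26 ± 0.177 per kb. NIP7, a factor of the large subunit, had 4.55 ± 0.777 per kb. NHP2, of the H/ACA core, had between 0 and 2 exon counts per library but between 27 and 99 intron counts. In the annotation, 28.1% of its exon bases lie in exons of RMND5B on the opposite strand. NHP2 was left out of the tests of exon counts and of the ratio, which covered 49 members.

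The percentage of a gene's counts that were intronic had a median of 2.98% over the 50 members. The lowest means over all libraries were those of NCL, with 0.434% ± 0.0494 (SD, n = 12), DDX21, a nucleolar RNA helicase, with 0.544% ± 0.122, and FBL, with 0.552% ± 0.185. This order did not hold in each group. In DMSO at 72 h, FBL had 0.367% ± 0.0363, below the 0.453% ± 0.0539 of NCL (SD, n = 3). In DMSO at 24 h FBL had 0.695% ± 0.00363, above the 0.561% ± 0.124 of NOP10 and the 0.633% ± 0.0368 of DDX10. The highest shares, after the 98.9% of NHP2, were those of TAF1C, with 72.4% ± 2.49, and TAF1A, another SL1 subunit, with 34.0% ± 2.60. NOLC1, which encodes a phosphoprotein that binds snoRNPs, had 21.4% ± 0.882 despite a high level per kb. The 7 snoRNA hosts had a median of 3.09% and the other 43 members one of 2.87%. Among members with at least 50 intron counts in every library, the order was the other way, with 3.09% for the 7 hosts and 4.79% for 26 others.

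**Figure D1:**
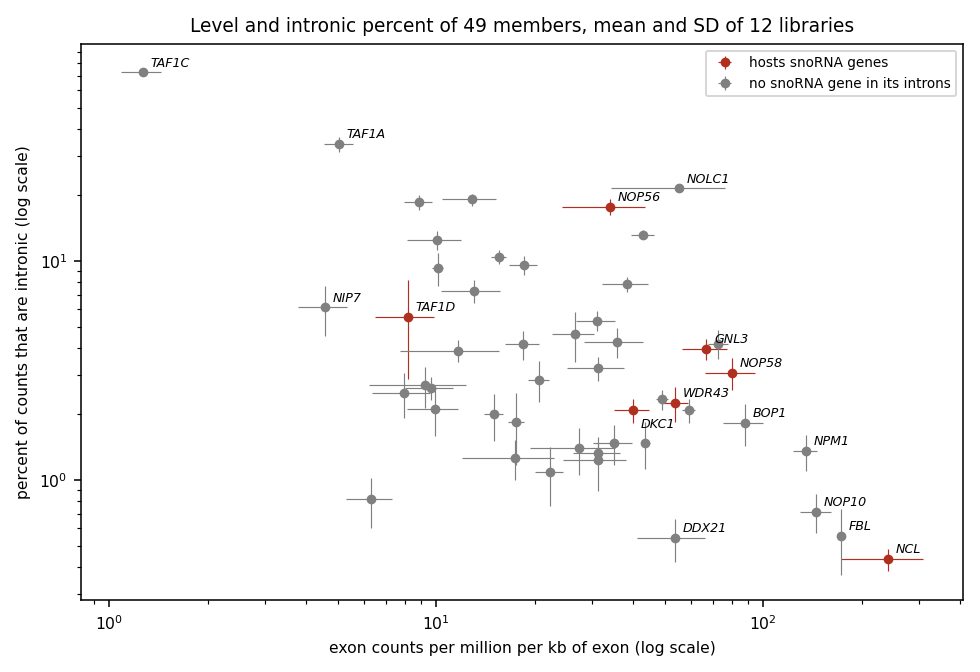
Exon CPM per kb of exon (log scale) against the percentage of counts that were intronic (log scale) for 49 members, as mean and SD of 12 libraries. NHP2 is left out. NCL lies at the lower right with 241 CPM per kb and 0.434% intronic, and TAF1C at the upper left with 1.26 and 72.4%.

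Cisplatin and DMSO were compared first at 24 h. None of the 49 members passed the test in exon counts (edgeR quasi-likelihood test, Benjamini-Hochberg adjusted p under 0.05), where 0% of all 10444 genes tested were called higher and 0% lower. None had an unadjusted p under 0.05, against 260 of all genes, and DESeq2 called 0 members and 0 genes in all. The median log2 change was 0.00, and the changes ranged from -0.12 to 0.12. For NCL, exon CPM were 2647, 2690 and 2848 in DMSO and 2756, 2672 and 2720 in cisplatin. The groups overlapped, and the log2 difference was -0.01 with a 95% interval from -0.10 to 0.09. The intervals were -0.13 to 0.09 for NPM1 and -0.09 to 0.09 for FBL. In no member did all 3 cisplatin libraries lie on one side of all 3 DMSO libraries, which happened in 3.33% of all genes tested for higher and 3.09% for lower values. The smallest unadjusted p-values belonged to TAF1B, an SL1 subunit, and RRP9, which binds the U3 snoRNA. TAF1B had 34.6, 40.3 and 40.7 exon CPM in DMSO and 38.2, 33.1 and 35.0 in cisplatin, a log2 difference of -0.12 ± 0.085 (SE, adjusted p = 1 by edgeR). RRP9 had 124, 115 and 104 in DMSO and 115, 124 and 121 in cisplatin, a difference of 0.07 ± 0.066. Both pairs of groups overlapped.

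At 72 h, exon counts of the members again passed the test in 0 of 49 cases, with 0% of all genes called higher and 0.0287% lower. At an unadjusted p under 0.05 there were 7 members, 4 with higher and 3 with lower counts in cisplatin, against 1311 of all 10444 genes. Over all genes, DESeq2 called 38 higher and 41 lower, and edgeR without the filter on low counts called 93 and 61 of 13148, with 0 members called by either. The median log2 change was -0.03, against 0.00 over all genes tested. For WDR12, which forms a large-subunit complex with PES1 and BOP1, exon CPM were 145, 150 and 138 in DMSO and 134, 129 and 132 in cisplatin. These groups did not overlap, and the log2 difference was -0.13 ± 0.053 (SE, adjusted p = 0.315 by edgeR). For HEATR1, a scaffold of the small subunit processome, the values were 206, 215 and 225 in DMSO and 248, 217 and 250 in cisplatin, which overlapped, with a log2 difference of 0.15 ± 0.061 (adjusted p = 0.332 by edgeR). The groups did not overlap in 4 members that were higher in cisplatin (NOL9, MYBBP1A, NAT10 and RRP12), against 8.85% of all genes, and in 7 that were lower (TAF1D, FBL, GNL3, NOP2, WDR12, UTP18 and UTP6), against 9.3%. Their log2 differences lay between -0.17 and 0.17. For NCL the log2 difference was 0.01, with a 95% interval from -0.09 to 0.10, for NPM1 -0.11, from -0.22 to 0.00, and for FBL -0.05, from -0.14 to 0.04. The difference between the cisplatin effects at 72 and 24 h was called in 0 members (2 with an unadjusted p under 0.05, against 985 of all genes, and 0 by DESeq2), with 0% of all genes called in either direction. In intron counts it was 0 of 50 (0 with an unadjusted p under 0.05, 0 by DESeq2), against 0.0208% of all genes each way.

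Time gave larger differences, and most of the nucleolar genes fell. In DMSO, exon counts of 37 of 49 members fell from 24 to 72 h and those of 2 rose (edgeR quasi-likelihood test, adjusted p under 0.05). Over all genes, 32.5% fell and 32.6% rose. The median log2 change of the members was -0.33, against 0.01 over all genes tested. In cisplatin, 38 of 49 fell and 2 rose, against 31.5% and 32% of all genes, with medians of -0.39 and 0.02. These comparisons share no library: 34 members fell in both, the same 2 rose in both, 3 fell in DMSO only by the test, 4 fell in cisplatin only by the test, and 6 passed in neither. Over all genes, 27.6% fell in both, 27.6% rose in both and 26.6% passed in neither. The members held 1.20% ± 0.0362 of all exon counts in DMSO at 24 h and 0.901% ± 0.0145 at 72 h, and 1.20% ± 0.0123 and 0.898% ± 0.0200 in cisplatin (SD, n = 3). The exon counts are relative to the library, so fewer transcripts per cell and more RNA of other genes cannot be told apart. No label separates the time points from the handling of their cultures, and these cannot be told apart either.

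**Figure D2:**
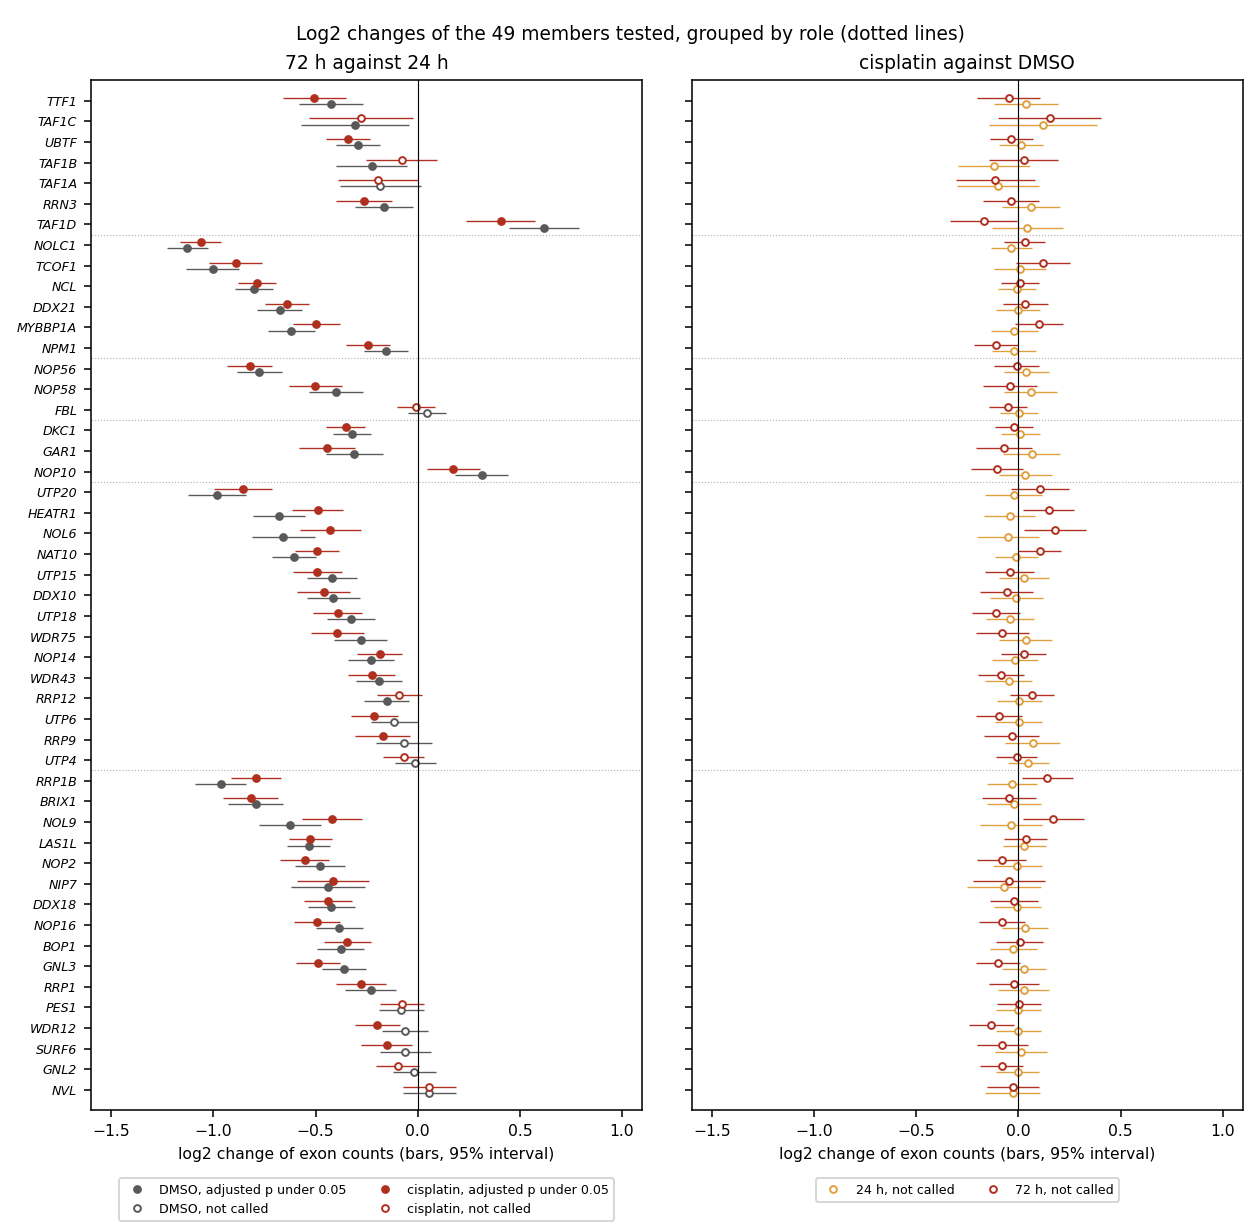
Log2 changes of exon counts of the 49 members tested, by role (dotted lines, from RNA polymerase I genes at the top to large-subunit factors at the bottom), with 95% intervals. Filled points passed the edgeR test. On the left, 72 h against 24 h, 37 members in DMSO and 38 in cisplatin fell and TAF1D and NOP10 rose. On the right, cisplatin against DMSO, the points lie between -0.17 and 0.18 and none passed.

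Among the nucleolar phosphoproteins and chaperones, all 6 members fell in both treatments, where 27.6% of all genes fell in both, with median log2 changes of -0.74 in DMSO and -0.71 in cisplatin, against 0.01 and 0.02 over all genes tested. NOLC1 fell most of all members. Its exon CPM were 297, 300 and 311 in DMSO at 24 h and 139, 138 and 139 at 72 h, a log2 change of -1.13 ± 0.049 (SE, adjusted p = 2.15e-15 by edgeR). In cisplatin they were 293, 298 and 295 at 24 h and 149, 140 and 135 at 72 h, a change of -1.06 ± 0.049. Every library at 72 h lay well below every library at 24 h. TCOF1 encodes treacle, which links RNA polymerase I to ribosomal DNA. It had 183, 169 and 172 in DMSO at 24 h and 93.9, 80.3 and 87.6 at 72 h, and its log2 change was -1.0 ± 0.063 in DMSO and -0.89 ± 0.063 in cisplatin.

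NCL had 1524, 1580 and 1595 exon CPM in DMSO at 72 h, against the 24 h values given above, and 1634, 1557 and 1528 in cisplatin at 72 h. It fell by 0.80 ± 0.045 on the log2 scale in DMSO and by 0.79 ± 0.045 in cisplatin (SE, adjusted p = 2.17e-13 and 3.66e-13 by edgeR). NCL alone made up 22.6% ± 0.275 of the members' exon counts in DMSO at 24 h and 17.4% ± 0.198 at 72 h (SD, n = 3). NPM1 changed less. It had 1147, 1212 and 1257 in DMSO at 24 h and 1007, 1162 and 1081 at 72 h, groups that overlapped, with a log2 change of -0.15 ± 0.052 (adjusted p = 0.0125 by edgeR). In cisplatin its 1207, 1134 and 1226 at 24 h became 1000, 1007 and 1008 at 72 h, a change of -0.24 ± 0.052. The call for NPM1 in DMSO held in 4 of the 6 fits that left out 1 library. DDX21 fell by 0.68 and 0.64, and MYBBP1A, a nucleolar MYB-binding protein, by 0.62 and 0.50, in DMSO and cisplatin.

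**Figure D3:**
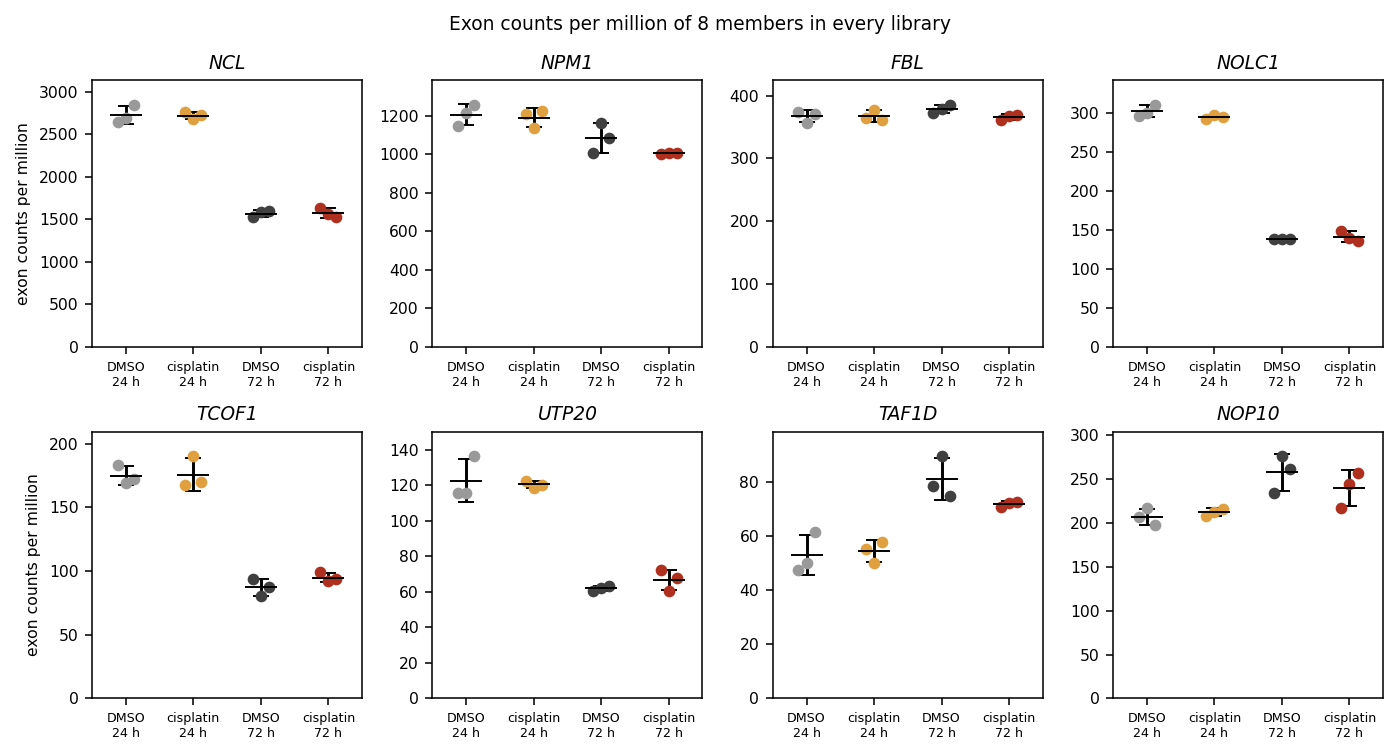
Exon CPM of 8 members in each of the 12 libraries (points), with the mean and SD of each group of 3. NCL, NOLC1, TCOF1 and UTP20 were lower at 72 h in every library, FBL stayed between 357 and 386 throughout, and TAF1D and NOP10 were higher at 72 h than in the 24 h group of the same treatment.

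Of the genes of RNA polymerase I transcription, 5 of 7 fell in DMSO and 3 of 7 in cisplatin, and 1 rose in each, where 32.5% and 31.5% of all genes fell and 32.6% and 32% rose. UBTF, which binds and opens the ribosomal DNA promoter, had 147, 143 and 141 in DMSO at 24 h and 123, 114 and 115 at 72 h, a log2 change of -0.29 ± 0.052. TTF1, which stops RNA polymerase I at the end of the ribosomal genes, fell by 0.42 in DMSO and by 0.51 in cisplatin. RRN3, which joins the polymerase to the promoter, fell by 0.17 and 0.26. The member that rose was TAF1D, an SL1 subunit. Its exon CPM were 47.5, 49.9 and 61.5 in DMSO at 24 h and 78.7, 89.7 and 75 at 72 h, and 55.4, 50.2 and 58.0 in cisplatin at 24 h and 71.0, 72.3 and 72.8 at 72 h. The groups of the 2 times did not overlap in either treatment, with log2 changes of 0.62 ± 0.082 and 0.41 ± 0.081 (SE, adjusted p = 5.24e-07 and 0.000138 by edgeR). The other SL1 subunits did not rise. TAF1B and TAF1C changed by -0.22 and -0.31 in DMSO, both called, and by -0.08 and -0.28 in cisplatin, both not called, and TAF1A by -0.18 and -0.20, not called in either. The calls for TAF1C, TAF1B and RRN3 in DMSO held in 2, 3 and 2 of the 6 fits that left out 1 library.

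The 3 members of the box C/D snoRNP core took different courses. FBL had 375, 357 and 371 exon CPM in DMSO at 24 h and 373, 379 and 386 at 72 h. These groups overlapped, and the log2 change was 0.05 ± 0.045 in DMSO (adjusted p = 0.382 by edgeR) and -0.01 ± 0.045 in cisplatin (adjusted p = 0.892 by edgeR). NOP56 had 208, 208 and 215 at 24 h and 115, 129 and 125 at 72 h in DMSO and fell by 0.77 ± 0.054, and by 0.82 ± 0.054 in cisplatin. NOP58 fell by 0.40 ± 0.063 and 0.50 ± 0.063.

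Of the H/ACA proteins tested, DKC1, the pseudouridine synthase, fell by 0.32 ± 0.045 in DMSO and by 0.35 ± 0.045 in cisplatin, and GAR1 by 0.31 ± 0.067 and 0.44 ± 0.066. NOP10 rose. It had 207, 217 and 198 exon CPM in DMSO at 24 h and 235, 276 and 262 at 72 h, a log2 change of 0.31 ± 0.063 (adjusted p = 0.00013 by edgeR). In cisplatin it had 208, 213 and 216 at 24 h and 217, 245 and 257 at 72 h, where the lowest value at 72 h was close to the highest at 24 h, and the change was 0.17 ± 0.063 (adjusted p = 0.0187 by edgeR). This call in cisplatin held in 3 of the 6 fits that left out 1 library, and that in DMSO in 6 of 6.

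Among the small-subunit factors, 11 of 14 fell in DMSO and 12 of 14 in cisplatin, against 32.5% and 31.5% of all genes, with medians of -0.30 and -0.39. UTP20, a large scaffold of the processome, had 116, 116 and 136 in DMSO at 24 h and 60.6, 62.2 and 63.2 at 72 h, a log2 change of -0.98 ± 0.069, and -0.85 ± 0.068 in cisplatin. HEATR1 changed by -0.68 and -0.49, NOL6 by -0.66 and -0.43, and NAT10, which acetylates the small-subunit RNA, by -0.61 and -0.49. UTP4 had values between 235 and 262 in all 12 libraries, with changes of -0.01 and -0.07 that did not pass. Among the large-subunit factors, 11 of 16 fell in DMSO and 13 of 16 in cisplatin, against the same shares of all genes, with medians of -0.38 and -0.42. RRP1B, a nucleolar protein, had 130, 128 and 136 exon CPM in DMSO at 24 h and 66.5, 62.9 and 71.8 at 72 h, without overlap, and fell by 0.96 in DMSO and 0.79 in cisplatin. BRIX1 fell by 0.79 and 0.82. LAS1L, the endonuclease that cuts the second internal spacer, fell by 0.53 and 0.52. PES1, GNL2 and NVL did not pass in either treatment, with changes from -0.10 to 0.06.

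The same comparisons in a list of other ribosome biogenesis factors, of which 105 were in the table and 104 were tested, gave 61 that fell (58.7%) and 11 that rose (10.6%) in DMSO, against 32.5% and 32.6% of all genes, with a median log2 change of -0.31. In cisplatin 74 fell (71.2%) and 9 rose (8.65%), against 31.5% and 32% of all genes, with a median of -0.29. Of those called in DMSO, PWP2 fell most, by 1.09 ± 0.40 (SE), and GNL3L by 0.94. These were followed by URB1 and URB2, factors of the early large subunit, with 0.85 and 0.83. In cisplatin, DDX47 fell by 0.91, EXOSC2 by 0.80 and NOL11, of the small subunit processome, by 0.79. NOP53, a late large-subunit factor, rose by 1.18 and 1.05 in DMSO and cisplatin, and EXOSC5, of the RNA exosome, by 0.74 and 0.59. Cisplatin against DMSO called 0 of these 104 at 24 h (0 with an unadjusted p under 0.05, against 260 of all 10444 genes) and 0 at 72 h (16 with an unadjusted p under 0.05, against 1311) by edgeR.

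Intron counts, which stand nearer to the unspliced transcript, were tested for all 50 members. Between cisplatin and DMSO, 0 members passed at either time by edgeR or DESeq2, with 2 at an unadjusted p under 0.05 at each, against 481 of all 9618 genes at 24 h and 621 at 72 h. SURF6, a nucleolar matrix protein, had 24.9, 17.3 and 15.6 intron CPM in DMSO and 18.3, 33.7 and 33.9 in cisplatin at 24 h, with overlap. RRP1B had 29.1, 30.6 and 28.3 in DMSO and 17.2, 21.0 and 22.3 in cisplatin, without overlap (adjusted p = 0.942 for both by edgeR). At 72 h, NOP2, a methyltransferase of the large subunit, had 175, 185 and 168 in DMSO and 151, 149 and 147 in cisplatin, without overlap. These are values and not calls. NCL had 112, 110 and 89.9 in DMSO and 87.7, 77.7 and 94.1 in cisplatin, with overlap. Over the 50 members, the groups did not overlap in 2 that were higher and 2 that were lower in cisplatin at 24 h, against 4.4% and 4.54% of all genes, and in 6 that were higher and 1 that was lower at 72 h, against 6.35% and 7.02%. Over all genes, 0% were called higher and 0.0208% lower at 24 h, and 0.0208% each way at 72 h. From 24 to 72 h in DMSO, 17 members fell and 1 rose, against 16.2% and 17.2% of all 9618 genes tested, with a median log2 change of -0.30 against -0.01. In cisplatin, 20 fell and 0 rose (0 with higher counts at an unadjusted p under 0.05), against 15.4% and 16.4% of all genes, with a median of -0.32 against -0.02. Without replicate 2 of cisplatin at 72 h, the deepest library, 12 members passed in place of 20. Of the box C/D proteins, 3 of 3 fell in each treatment, against 16.2% of all genes in DMSO and 15.4% in cisplatin. Of the phosphoproteins and chaperones, 4 of 6 fell in each, against the same shares. The call for FBL in cisplatin held in 4 of the 6 fits that left out 1 library.

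NOLC1 had 1194, 1171 and 1052 intron CPM in DMSO at 24 h and 521, 533 and 553 at 72 h, a log2 change of -1.09 ± 0.087 (SE, adjusted p = 2.03e-15 by edgeR). NOP56 had 622, 621 and 602 at 24 h and 377, 383 and 350 at 72 h, a change of -0.74 ± 0.091. In both genes the intron counts fell with the exon counts, and the groups did not overlap. RRP1B had the lowest change of intron counts in DMSO, at -1.31 ± 0.27, from the 24 h values given above to 11.8, 7.17 and 15.5 at 72 h. NOP58 had 128, 162 and 174 in DMSO at 24 h and 99.3, 82.8 and 74.5 at 72 h, a change of -0.86 ± 0.13. BOP1 went from 126, 97.8 and 115 to 57.0, 60.7 and 71.1, a change of -0.83 ± 0.15. None of these groups overlapped. NIP7 was lowest in cisplatin, at -0.98 ± 0.25, with 17.7, 31.1 and 32.2 at 24 h and 11.7, 15.5 and 13.4 at 72 h. NCL had 192, 143 and 166 in cisplatin at 24 h, against the 72 h values given above, a change of -0.95 ± 0.12. For NIP7 and NCL, every library at 72 h was below every library at 24 h. In the annotation, NIP7 has 367 bases of intron, and 18.4% of its exon bases lie in exons on the opposite strand. What this does to its counts was not tested. NOP10 rose in intron counts too, by 0.82 ± 0.25 in DMSO, from between 21 and 37 raw counts per library at 24 h, a call that held in 4 of 6 fits.

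The ratio of exon to intron counts was tested within libraries by edgeR. In cisplatin against DMSO, 0 of 49 members passed at 24 h (5 with an unadjusted p under 0.05, against 594 of all genes) and 0 at 72 h (3 with an unadjusted p under 0.05, against 585), with 0% of all 9380 genes called either way at 24 h and 0% higher and 0.0213% lower at 72 h. The median log2 change of the members was -0.10 at 24 h and -0.11 at 72 h, against -0.09 and -0.08 over all genes tested. The share of intron counts in the whole library was 6.49% ± 0.206 in DMSO and 6.75% ± 0.379 in cisplatin at 24 h, and 6.81% ± 0.0441 and 7.02% ± 0.150 at 72 h (SD, n = 3). The part of this shift of all genes in the members' values was not tested. The smallest unadjusted p-values were those of UTP18, of the processome, and SURF6 at 24 h, with log2 changes of -0.65 ± 0.22 and -0.64 ± 0.23 (adjusted p = 0.759 and 0.761 by edgeR). UTP18 had ratios of 102, 74.1 and 106 in DMSO and 52.4, 62.5 and 57.9 in cisplatin, without overlap, and SURF6 had 45.1, 63.2 and 70.5 in DMSO and 56.2, 28.8 and 35.4 in cisplatin, with overlap. At 72 h, WDR12 and RRN3 had -0.52 ± 0.19 and -0.68 ± 0.25 (adjusted p = 0.708 for both by edgeR). RRN3 had 153, 129 and 147 in DMSO and 110, 97.7 and 62.7 in cisplatin, and WDR12 54.6, 68.2 and 51.5 in DMSO and 45.0, 44 and 30.7 in cisplatin, both without overlap. At 24 h, all 3 cisplatin libraries lay below all 3 DMSO libraries in 3 of 49 members, against 7.36% of all genes, and above them in 2, against 2.2%. At 72 h, they lay below in 12 of 49 members, against 11.8% of all genes, and above them in none, against 2.56%.

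The logistic regression that the study used gave more calls, since it takes the reads and not the libraries as the unit of error. It called 7 members lower and 0 higher in cisplatin at 24 h, against 10.7% and 0.765% of all genes, and 10 lower and 0 higher at 72 h, against 9.7% and 1.73%. At 24 h these were NOP56, BRIX1, GNL2, LAS1L, SURF6, MYBBP1A and UTP18, and at 72 h RRN3, GNL2, LAS1L, NVL, PES1, WDR12, NOLC1, NPM1, WDR43 and WDR75. For NPM1 at 72 h, the splicing score, the log2 of the summed exon/intron ratios of treated over control libraries, was -0.22, and the groups overlapped. With the spread between libraries in the model (quasi-binomial), 0 members and 0 of all genes were called at either time, 9678 genes at 24 h and 10011 at 72 h. Without replicate 2 of cisplatin at 24 h, 1 member was called at 24 h, and without replicate 2 of DMSO at 24 h, 2 were. At 72 h, 5 or 6 members in place of 10 were called without any 1 of the 3 DMSO libraries or of replicates 2 and 3 of cisplatin.

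Over time, the edgeR test of the ratio called 5 members higher and 2 lower at 72 h in DMSO, against 8.09% and 3.37% of all genes, and 4 higher and 1 lower in cisplatin, against 8.36% and 3.56%. The median log2 change was 0.03 in DMSO and -0.03 in cisplatin, against 0.10 and 0.11 over all genes tested. TAF1D had the largest rise. Its ratio of exon to intron counts was 9.67, 15.9 and 13.3 in DMSO at 24 h and 25.8, 31.1 and 35.2 at 72 h, and 17.9, 7.93 and 14.0 in cisplatin at 24 h and 24.5, 25.5 and 26.8 at 72 h. The groups did not overlap, and the log2 changes were 1.29 ± 0.23 and 1.11 ± 0.22 (SE, adjusted p = 0.00044 and 0.00116 by edgeR). TAF1D was the member with the most snoRNA genes, and its exon counts rose while its intron counts changed by -0.59 ± 0.19 and -0.63 ± 0.18, both called. These intron calls held in 4 and 5 of the 6 fits that left out 1 library.

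FBL, whose exon counts did not pass, had ratios of 144, 142 and 143 in DMSO at 24 h and 269, 303 and 248 at 72 h, a log2 change of 0.91 ± 0.20 (adjusted p = 0.00312 by edgeR). Its intron counts numbered between 33 and 121 per library and fell by 0.79 ± 0.23 in DMSO and 0.71 ± 0.21 in cisplatin. In cisplatin, the change of its ratio was 0.80 ± 0.18, and the calls there held in 4 of 6 fits for intron counts and in 5 of 6 for the ratio. BOP1, of the complex with PES1, had 44.8, 55.3 and 42.1 in DMSO at 24 h and 78.5, 67.3 and 60.7 at 72 h, and changed by 0.52 ± 0.15 in DMSO and 0.53 ± 0.14 in cisplatin, calls that held in 2 and 4 of 6 fits. NOP58 passed in DMSO, from 28.0, 27.5 and 24.6 to 33.3, 40.5 and 42.7, with 0.54 ± 0.13, and NPM1 from 76.3, 72.0 and 54.4 to 84.1, 93.4 and 101, with 0.47 ± 0.13, of which the call for NPM1 held in 4 of 6 fits. UTP4 passed in cisplatin, from 46.7, 51.8 and 76.0 to 72.1, 117 and 80.3, groups that overlapped, with 0.68 ± 0.17, a call that held in 3 of 6 fits. HEATR1 went the other way, from 100, 116 and 154 to 72.0, 72.6 and 61.9 in DMSO, a log2 change of -0.80 ± 0.17, and -0.57 ± 0.16 in cisplatin, where the call held in 4 of 6 fits. In the annotation, 23.1% of its exon bases lie in exons of LGALS8 on the opposite strand. UTP20 passed in DMSO, from 39.6, 51.0 and 50.7 to 30.6, 32.1 and 28.4, with -0.63 ± 0.19, a call that held in 1 of the 6 fits that left out 1 library.

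The logistic regression called 10 higher and 10 lower over time in DMSO, against 22.5% and 11.1% of all genes, and 13 higher and 8 lower in cisplatin, against 29% and 11.6%. The quasi-binomial fit called 1 member in DMSO, where it called 41 of 9739 genes higher and 23 lower, and 0 in cisplatin, where it called 68 of 9818 higher and 29 lower. The number of edgeR calls depended on which libraries were in the fit. In DMSO, each fit that left out 1 library gave 4 to 6 members. Without replicate 3 of DMSO at 24 h, 4 members passed in DMSO in place of 7. Without replicate 2 of cisplatin at 24 h, 1 passed in cisplatin in place of 5, and without replicate 2 of cisplatin at 72 h, 2 did. The call for TAF1D held in every fit that left out 1 library of its comparison, in both treatments. The difference between the cisplatin effects on the ratio at 72 and 24 h passed the edgeR test in 0 of 49 members (1 with an unadjusted p under 0.05, against 427 of all genes), with estimates from -0.35 to 0.62 on the log2 scale, and in 0% of all genes either way.

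**Figure D4:**
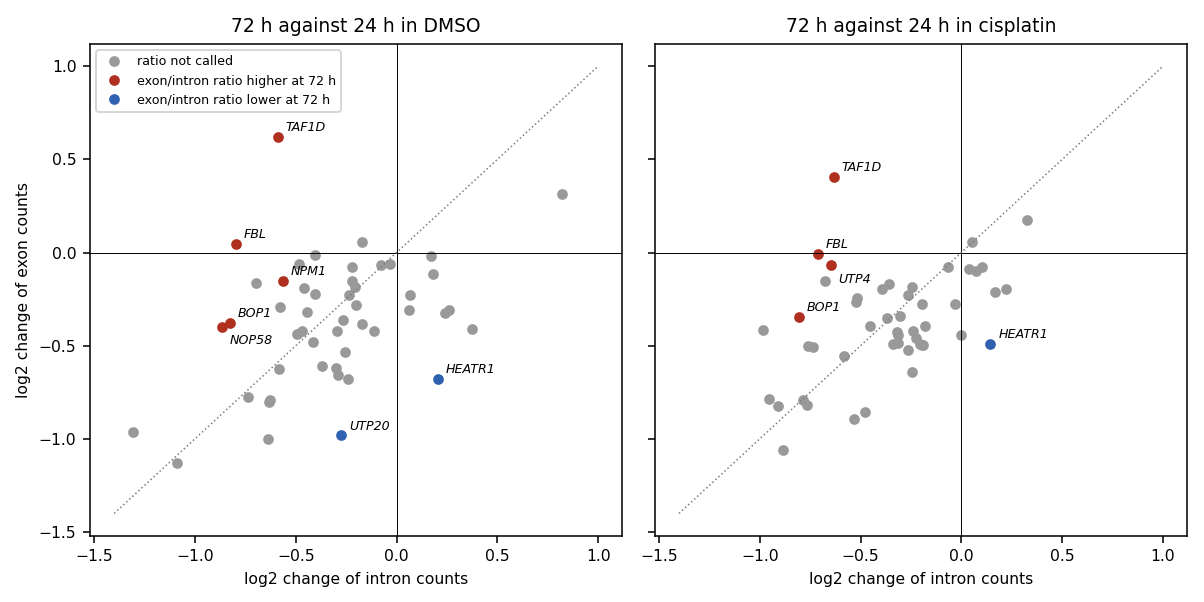
Log2 change of exon counts against that of intron counts from 24 to 72 h for the members tested for the ratio, in DMSO (left) and cisplatin (right). Red points passed the edgeR test of the ratio with a higher and blue points with a lower value at 72 h. Most points lie in the lower left, where both counts were lower at 72 h, and TAF1D, at the upper left, was the one member called higher in exon and lower in intron counts, with exon changes of 0.62 and 0.41 and intron changes of -0.59 and -0.63.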

How the data were processed

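Poly(A)+ RNA of 12 libraries was sequenced by the authors from directional libraries on a single lane. Per the labels and the study's methods, the authors trimmed reads with Trim Galore 0.6.0, aligned them to GRCh38 with HISAT2 2.1.0 and counted fragments on exons (intersection-strict) and introns (union) of Ensembl genes with HTSeq. The deposited values are raw counts, neither normalized nor pooled. The strand option is not given in the sources used here, so genes with overlapping neighbours are uncertain.

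Symbols and positions came from GENCODE release 44 for 17485 of 17508 genes, and promoters from RefSeq. Members, lists and tests were chosen with earlier results of these data known. Exon and intron counts were tested with edgeR 4.0.16 (quasi-likelihood, TMM, filterByExpr) in R 4.3.3, with the 12 libraries in 1 fit and Benjamini-Hochberg adjustment over all genes at 0.05. For the ratio, edgeR had a term per library, and genes needed 10 or more counts of each kind in 3 or more libraries. The study's logistic regression was run on genes with at least 1 of each in every library compared. CPM use TMM library sizes, and levels per kb the union of annotated exons. DESeq2 1.42.0, other filters and scalings, the replicate number as a block and leaving out each library were alternatives. The scripts were tested on simulated data. Replicate numbers did not pair the libraries (correlations of deviations between -0.11 and 0.10). Any member could be named. Library values were given, for some members in 1 treatment only, for NCL, NPM1 and FBL, for up to 4 called rises and 4 falls per comparison, for the 2 smallest p-values where none passed and for the 3 highest and lowest levels and intronic percentages, and, chosen after values were seen, for UBTF, NOP56 and UTP4. Of the cell markers chosen, 12 are given, and others are not reported here. Protein sequences were not used here. Intervals cover the spread between these libraries only.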

Additional observations from a re-analysis of the deposited data

How the results depend on the processing

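Of the counts of members that passed, 79 of 83 values under other settings stayed within 1.5 times the main value, and 121 of 132 values with 1 library left out did. The exceptions under other settings were the 4 quasi-binomial fits of the ratio, which called 0 members for cisplatin at 24 h, 0 at 72 h, 1 over time in DMSO and 0 over time in cisplatin, in place of 7, 10, 20 and 21 by logistic regression. With 1 library left out, exon counts gave 36 to 39 members over time in DMSO and 37 to 40 in cisplatin, and intron counts 14 to 17 and 12 to 22. The ratio by edgeR gave 4 to 6 and 1 to 6. The logistic regression gave 1 to 9 for cisplatin at 24 h, 5 to 10 at 72 h, and 17 to 22 over time in each treatment. For the other comparisons by edgeR, cisplatin against DMSO and the difference of its effects, every fit gave 0. No named change reversed its direction among those called.

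With the replicate number as a block, which does not pair these libraries, exon counts gave 39 members over time in DMSO and 40 in cisplatin, intron counts 18 and 19, the ratio by edgeR 6 and 5, and the logistic regression 6 and 11 for cisplatin at 24 and 72 h and 24 over time in each treatment. Over time, the block fits called 3375 of all 10444 genes higher and 3376 lower in exon counts in DMSO, and 3283 and 3255 in cisplatin. Intron counts gave 1622 and 1532 of 9618, and 1562 and 1443. The ratio by edgeR gave 673 and 284 of 9380, and 675 and 299. The logistic regression gave 68 and 961 of 9678 for cisplatin at 24 h, and 177 and 1096 of 10011 at 72 h. Over time it gave 2251 and 1016 of 9739 in DMSO, and 2849 and 1141 of 9818 in cisplatin. With the block, the ratio of UTP20 in DMSO no longer passed. Over members with at least 50 intron counts in every library, the median intronic share was 4.18% (33 members) in place of 2.98%. Per kb of the longest transcript, the levels were 507 for NCL, 311 for NPM1, 264 for FBL and 232 for NOP10, which moved NPM1 from rank 4 to rank 2. The members' intron counts were between 7601 and 20893 per library, and the effect of this depth on the number of intron calls was not tested.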

Other observations

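Cisplatin against DMSO at 72 h, the log2 change of the members' exon counts ran with the length of the longest annotated transcript, with a Spearman correlation of 0.45 across 49 members, 0.38 across 104 other ribosome biogenesis factors and 0.40 across all 10436 genes tested that had a length. The 23 members with a transcript of at least 4000 bases had a median of 0.01 and the 26 shorter ones a median of -0.05. At 24 h the correlation was -0.13 across members and -0.17 across all genes tested. Over time it was -0.38 and -0.19 in DMSO, and -0.29 and -0.07 in cisplatin. These are descriptions across genes measured in the same libraries, and genes are not independent replicates.

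The E-box CACGTG was found in a promoter of 26 of 88 other ribosome biogenesis factors (29.5%). Members that share exon bases with a neighbour include NOP2, with 54.4% of its exon bases in exons of an overlapping gene on the same strand, and NOP14, with 20.7% in exons on the opposite strand. What this does to their counts was not tested.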
